A study of Mus musculus with 9 samples.

Results

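The genes described here are 10 markers of the crypt stem cell and targets of Wnt signalling in the intestinal epithelium: *Lgr5*, *Ascl2*, *Sox9*, *Axin2*, *Rnf43*, *Znrf3*, *Ephb2*, *Lrig1*, *Smoc2* and *Prom1*. They were chosen by symbol and make up 10 of the 27719 genes and loci of the count table. Of these 10 genes, 8 were among the 12566 genes with enough counts to be tested, and *Lgr5* and *Znrf3* were not. Full-length cDNA of the colon of C57BL/6J mice was PCR-amplified and read by Oxford Nanopore sequencing, 1 library per mouse, with 3 mice in each of 3 groups. The control group drank distilled water. The DSS group drank 2.5% dextran sodium sulfate, which injures the colon epithelium, for 7 days. The DSS + EA group drank the same DSS and, once 5 days of modeling had passed, received 5 daily sessions of electroacupuncture (EA) of 30 minutes each, in which needles at both ST36 acupoints, below the knee, carried a current of 0.2 mA at 2 Hz. Control and DSS mice were held for the same time without current, and no sham needling group was among the samples. By the paper's histology methods, mice were killed once the 5 treatment days had passed. As EA began after 5 days of modeling, this falls after the 7 days of DSS. No separate time is given for the sequenced colons. The libraries held between 2627695 (control mouse 3) and 4235576 (DSS mouse 2) counts. Levels are given as CPM, counts scaled to a common TMM-adjusted library total, on which 3 counts amount to between 0.652 and 1.15 CPM.

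Stem cells at the base of the crypt renew the colon epithelium, and Wnt ligands and R-spondins from the cells around them keep them dividing. A Wnt ligand binds a Frizzled receptor and its LRP co-receptor, β-catenin then accumulates, enters the nucleus and, with TCF/LEF factors, switches on target genes. Several of these targets, *Axin2*, *Rnf43* and *Znrf3* among them, encode proteins that turn the signal down again, so their transcripts are widely read as a gauge of Wnt activity. Stem cells are a small part of the colon wall, and transcripts of their markers are rare in RNA of the whole organ.

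*Ascl2* and *Axin2* are the members whose levels per mouse the results below turn on, and the sequence just before their start sites is shown for that reason. *Ascl2* encodes a basic helix-loop-helix factor, a class of proteins that binds E-boxes, so E-boxes (CANNTG, the same on both strands) are in capitals. Each line gives the 250 bases before the RefSeq start site (build GRCm38.p6, the mm10 assembly named in the submitters' processing notes), 5′ to 3′ on the strand of the gene. The *Ascl2* stretch is chr7:142969265-142969514 on the minus strand, and the *Axin2* stretch is chr11:108920099-108920348 on the plus strand.
Ascl2: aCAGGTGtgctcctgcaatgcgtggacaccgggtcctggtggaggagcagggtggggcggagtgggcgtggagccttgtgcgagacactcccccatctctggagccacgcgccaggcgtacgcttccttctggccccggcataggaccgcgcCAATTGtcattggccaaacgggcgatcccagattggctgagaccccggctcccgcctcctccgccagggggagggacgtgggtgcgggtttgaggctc
Axin2: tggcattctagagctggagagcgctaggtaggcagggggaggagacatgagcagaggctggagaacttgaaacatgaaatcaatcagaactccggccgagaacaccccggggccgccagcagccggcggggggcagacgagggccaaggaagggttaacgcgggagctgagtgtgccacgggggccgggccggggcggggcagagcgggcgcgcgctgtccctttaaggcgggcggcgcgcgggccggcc
The *Ascl2* stretch holds 2 E-boxes, which begin 249 and 98 bases before the start site, and the *Axin2* stretch holds 0. RefSeq windows were found for 6 of the 10 genes, 8 windows in all (*Ephb2*, *Lrig1*, *Ascl2*, *Axin2* and a pair each for *Prom1* and *Rnf43*). An E-box was present in 4 of these 8 windows and in 66.2% of the 32851 windows of this length across the genome. A TCF/LEF motif, searched on either strand as CTTTG followed by 2 bases that are each A or T, was present in 0 of the 8 windows and in 14.8% of all windows, which says only that these letters are not in these stretches.

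The transcription factors *Ascl2* and *Sox9* were lower with DSS. *Ascl2*, which specifies the stem cell state, was 6.14-fold lower in DSS than in control mice, and *Sox9*, an HMG-box factor of the lower crypt, was 2.10-fold lower. These were the 2 of 8 tested members that passed an adjusted p of 0.05 in edgeR's quasi-likelihood test, both lower, whereas 40.9% of all genes tested passed it in this comparison and 19.5% were lower. The share of members called lower was thus near that of all genes, but the count moved with single mice. The 2 became 4 without DSS mouse 1 or 2, and 1 without control mouse 1, control mouse 2 or DSS mouse 3. At an unadjusted P under 0.05 there were 5 of 8 members, *Axin2*, *Rnf43* and *Smoc2* in addition, beside 49.8% of all genes. The median log2 fold change of the 8 members was -0.91, beside 0.02 over all genes tested. In 5 of the 8 members every DSS mouse lay below every control mouse (*Ascl2*, *Sox9*, *Axin2*, *Rnf43* and *Ephb2*), an arrangement seen in 25.9% of all genes tested, and in *Smoc2* every DSS mouse lay above (26.2% of all genes). *Ascl2*, *Axin2* and *Rnf43* passed the low-count filter only because the control libraries, where their levels were highest, were in the fit. The tested members thus lean towards genes lower with DSS. Without a filter, edgeR gave a log2 fold change of -2.66 for *Ascl2* (adjusted p = 0.000682). *Axin2* (adjusted p = 0.0464) and *Rnf43* (adjusted p = 0.0617) were both at -1.45 in that fit.

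*Ascl2* (mm10 chr7:142966829-142969264) measured 11.4, 9.97 and 5.37 CPM in control mice 1 to 3, and 0.965, 1.96 and 1.25 CPM in DSS mice 1 to 3. The 3 DSS values lay close together and well below the lowest control value, that of control mouse 3. They rest on 3, 9 and 4 counts. The control mean was 8.92 ± 3.17 CPM and the DSS mean 1.39 ± 0.51 CPM (SD, n = 3 each). The log2 fold change was -2.62, with a standard error of 0.44 and an adjusted p of 0.00145. By the thresholds of the study's methods, an absolute log2 fold change over 2.5 with P under 0.01, 10.2% of all genes differed and *Ascl2* was the 1 tested member that did. It fell short of 2.5 without control mouse 1 (-2.43) or DSS mouse 1 (-2.46). *Sox9* (chr11:112782224-112787760) measured 23.4, 23.6 and 17.6 CPM in the control mice and 11.3, 12.8 and 6.55 CPM in the DSS mice. Every DSS mouse was again below every control mouse, at a log2 fold change of -1.07 with standard error 0.32 (adjusted p = 0.0232). Its call was lost without control mouse 1 (adjusted p = 0.0636), control mouse 2 (0.0632) or DSS mouse 3 (0.0607).

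*Lgr5* (chr10:115450311-115587780), the R-spondin receptor that defines the crypt base columnar stem cell, was too rare to enter the test. Its counts were 5, 10 and 2 in control mice 1 to 3, and 1, 0 and 0 in DSS mice 1 to 3. All 3 DSS libraries held less than any control library. Summed over the groups this was 17 counts against 1, a level 19.4-fold lower with DSS, with an exact 95% interval from 3.04 to 812 that covers counting error only and not the spread between mice. When no low-count filter was applied and 22099 genes were tested, *Lgr5* had an adjusted p of 0.0174 in edgeR. DESeq2, which applies its own default filter on mean count before the adjustment, gave 0.0258.

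Among the feedback inhibitors of the Wnt signal, *Axin2* and *Rnf43* did not pass the test and *Znrf3* was not tested. *Axin2* (chr11:108920349-108950783), a scaffold of the complex that destroys β-catenin, measured 7.62, 5.98 and 7.66 CPM in the control mice and 0.643, 4.78 and 2.18 CPM in the DSS mice. The groups did not overlap, but the DSS mice were far apart, from 2 counts in mouse 1 to 22 in mouse 2. The log2 fold change of -1.39 (standard error 0.53) had an adjusted p of 0.0582, and without DSS mouse 2 it was -2.27 (adjusted p = 0.0126), whereas without DSS mouse 1 it was -1.0 (adjusted p = 0.0822). *Rnf43* (chr11:87662722-87735539), a ubiquitin ligase that removes Frizzled receptors from the cell surface, measured 5.34, 3.66 and 3.45 CPM in the control mice and 2.57, 1.74 and 0.312 CPM in the DSS mice, again without overlap. The log2 fold change of -1.42 (standard error 0.53) had an adjusted p of 0.0545, and without DSS mouse 1 it was -1.91 (adjusted p = 0.0232), whereas without DSS mouse 3 it was -0.98 (adjusted p = 0.11). *Znrf3* (chr11:5276324-5444847), the partner of *Rnf43* in this role, had 3, 4 and 3 counts in control mice, against 2, 3 and 2 in DSS mice, too few for a difference to be detectable at this depth (ratio of the summed counts 0.613, exact 95% interval 0.198 to 1.78 for counting error).

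**Figure D1:**
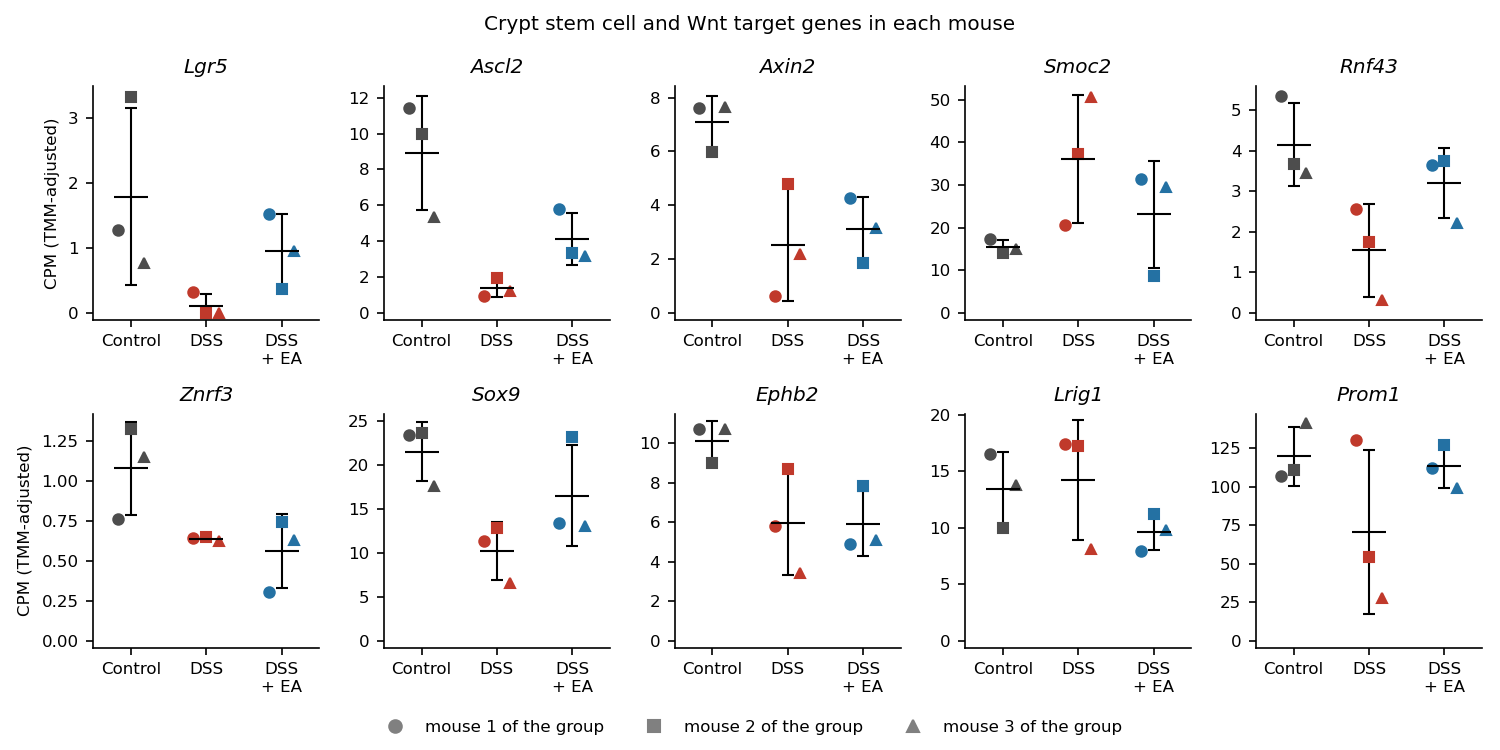
TMM-adjusted CPM of the 10 genes in each mouse, 1 panel per gene with its own linear axis, with points for single mice, horizontal bars for group means and error bars for 1 SD (n = 3 mice). *Ascl2* lay between 0.965 and 1.96 CPM in the DSS mice and at 5.37 CPM or more in the control mice, whereas *Smoc2* was higher in every DSS mouse than in any control mouse; for *Axin2* and *Prom1* the DSS mice were spread widely.

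The members with other roles did not move as a block. *Ephb2* (chr4:136647539-136835988), an ephrin receptor that positions cells along the crypt, measured 10.7, 8.98 and 10.7 CPM in the control mice and 5.79, 8.69 and 3.43 CPM in the DSS mice, with DSS mouse 2 just under the lowest control mouse (log2 fold change -0.73, standard error 0.35, adjusted p = 0.122). Without that mouse the value was -1.12 (adjusted p = 0.0382), and without DSS mouse 3 it was -0.47 (adjusted p = 0.289). *Prom1* (chr5:43993620-44102032), a membrane glycoprotein of cell protrusions also known as CD133, measured 107, 111 and 141 CPM in the control mice and 130.0, 54.3 and 27.5 CPM in the DSS mice. DSS mouse 1 was within the control range while DSS mice 2 and 3 were below it, and the fold change (log2 -0.76, standard error 0.44) did not pass the test at an adjusted p of 0.193. Without DSS mouse 1 it was -1.56 (adjusted p = 0.00198), and without DSS mouse 3 it was -0.38 (adjusted p = 0.404). *Lrig1* (chr6:94604529-94700158), which restrains EGF receptor signalling and marks slowly dividing crypt cells, overlapped between the groups, at 9.97 to 16.5 CPM in the control mice and 8.11 to 17.4 CPM in the DSS mice. Its log2 fold change was 0.08 (95% interval -0.65 to 0.81, adjusted p = 0.863), and its sign changed when single mice were left out.

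*Smoc2* had its higher values in the DSS mice. This gene (chr17:14279506-14404790) encodes a secreted matricellular protein and is listed as a stem cell marker, but cells of the lamina propria can also express it. It measured 17.3, 14 and 14.9 CPM in the control mice and 20.6, 37.2 and 50.6 CPM in the DSS mice. All DSS mice were above all control mice, at a log2 fold change of 1.23 with standard error 0.46 (adjusted p = 0.054). DESeq2 gave an adjusted p of 0.0422. In edgeR the value was 1.47 without DSS mouse 1 (adjusted p = 0.0198) and 0.91 without DSS mouse 3 (adjusted p = 0.157). Fibroblast markers moved with *Smoc2*. Of the 8 markers listed (*Col1a1*, *Col1a2*, *Col3a1*, *Dcn*, *Lum*, *Pdgfra*, *Col6a1* and *Fbln1*), 7 were higher and 0 lower with DSS, beside 21.5% higher over all genes, and 0 were at 0 in any group. Their summed level was 826, 891 and 892 CPM in the control mice and 4207, 5038 and 6949 CPM in the DSS mice, with *Dcn* the most abundant. The DSS mice stood in the same order for these markers as for *Smoc2*. The control mice did not, as control mouse 1 had the lowest sum and the most *Smoc2*. The part of fibroblasts in the *Smoc2* result was not tested.

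These are levels in RNA of the whole colon, in which fewer crypt cells and less RNA per crypt cell cannot be told apart. Markers of the epithelium as a whole were therefore set beside the members. The 8 markers were *Epcam*, *Cdh1*, *Krt8*, *Krt18*, *Krt19*, *Cldn7*, *Vil1* and *Cdh17*, of which 3 were lower and 0 higher with DSS, beside 19.5% lower over all genes, and 7 were lower without DSS mouse 1. Their summed level was 5224, 4997 and 5905 CPM in the control mice and 4133, 2247 and 1066 CPM in DSS mice 1 to 3. *Krt19* was the most abundant, and none was at 0 in any group. DSS mouse 1 was thus nearest to the control mice in epithelial RNA, and DSS mouse 3 farthest from them. Smooth muscle, the other main tissue of the colon wall, also had all 8 of its markers above 0 in every group, with 7 of them lower with DSS, beside the same 19.5%. Of the differentiated epithelial cells, surface colonocytes had 10 of 10 markers lower with DSS (list median -2.36, and 4 lower without DSS mouse 2) and goblet cells 8 of 8 (list median -3.16). Neutrophil markers, summed, reached 4508, 24348 and 27139 CPM in DSS mice 1 to 3 and 159 CPM at most in the control mice.

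*Prom1* and *Ascl2* related differently to this order. *Prom1*, *Rnf43* and *Lrig1* were highest in DSS mouse 1 and lowest in DSS mouse 3, as the epithelium markers were. *Ascl2* and *Axin2* did not follow this order. DSS mouse 1, with the most epithelium marker RNA of the 3, had the lowest *Ascl2* (0.965 CPM) and the lowest *Axin2* (0.643 CPM) of all 9 mice. These values rest on 3 and 2 counts, and *Ascl2* had 4 counts in DSS mouse 3, so counting error could change its order. Expressed per 100 CPM of epithelium (the geometric mean of the 8 markers), *Ascl2* was 2.7, 2.41 and 1.08 in the control mice and 0.28, 1.09 and 1.39 in the DSS mice. The groups overlapped, and only DSS mouse 1, with its 3 counts, lay below every control mouse. *Axin2* on this scale was 1.45 to 1.8 in the control mice and 0.187, 2.67 and 2.44 in the DSS mice, below the control mice in mouse 1 and above them in the other two. *Prom1* was 25.2 to 28.3 in the control mice and 30.3 to 37.7 in the DSS mice. *Lgr5*, from its few counts, was 0.3, 0.804 and 0.154 in the control mice and 0.0934, 0 and 0 in the DSS mice, where 2 libraries have 0 counts on any scale.

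**Figure D2:**
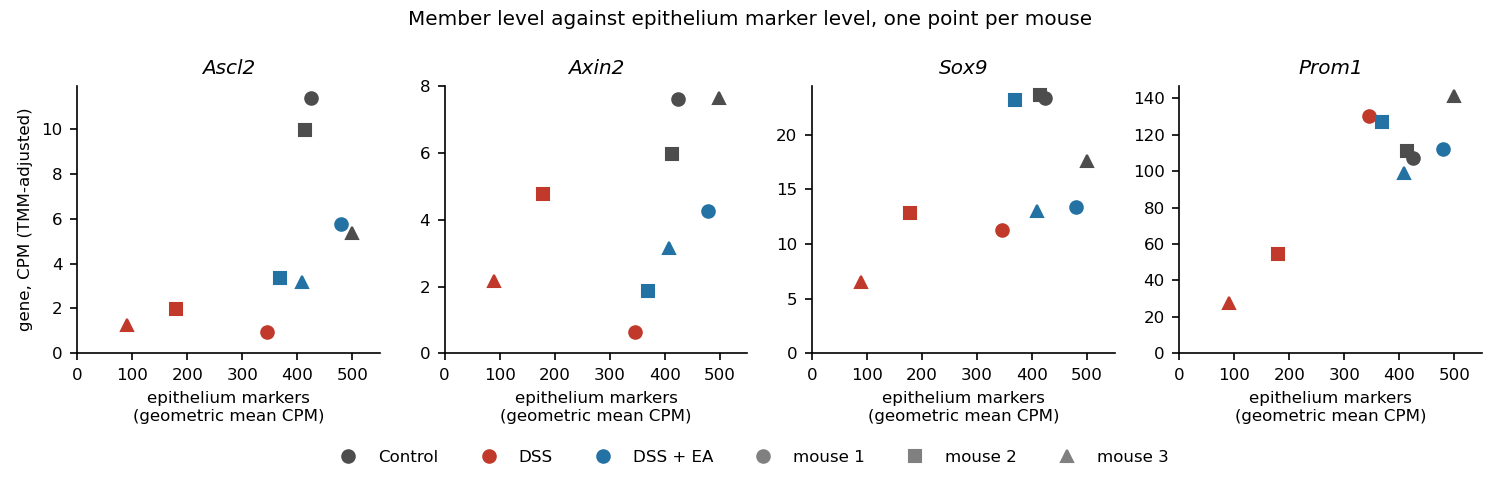
Level of *Ascl2*, *Axin2*, *Sox9* and *Prom1* (vertical axes, TMM-adjusted CPM) against the geometric mean of the 8 epithelium markers (horizontal axes, CPM), 1 point per mouse, coloured by group. The DSS mice span 89.6 to 345 CPM of epithelium marker RNA, and *Prom1* is higher in the DSS mice with more of it. DSS mouse 1, at 345 CPM, has the lowest *Ascl2* and *Axin2* of the 9 mice, from 3 and 2 counts.

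The comparison was then refitted with each library scaled to its epithelium markers in place of its total. This shifts all genes at once: the median over all genes tested moved from 0.02 to 1.51 on the log2 scale, with 55.4% of all genes called higher and 3.25% lower. The median of the 8 members was 0.27 on this scale, below that of all genes. *Ascl2* kept a negative log2 fold change of -1.31 (adjusted p = 0.098) and *Rnf43* one of -0.35, neither of them called. *Sox9* (0.24), *Axin2* (0.06), *Ephb2* (0.58) and *Prom1* (0.30) changed sign, none of them called. *Smoc2* at 2.97 (adjusted p = 0.00131) and *Lrig1* at 1.37 (adjusted p = 0.0349) were called higher.

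After EA, *Ascl2* stood between the other groups. It measured 5.78, 3.36 and 3.17 CPM in DSS + EA mice 1 to 3 (mean 4.11 ± 1.46 CPM, SD, n = 3), every value above the highest of the DSS mice. Against the DSS group this was 2.83-fold higher (log2 fold change 1.5, standard error 0.47, adjusted p = 0.032), and *Ascl2* was the 1 of 8 members called, beside 35.5% of all genes tested in this comparison, with 17.2% called higher and 18.3% lower. The call was lost without DSS mouse 1 (adjusted p = 0.0596), DSS mouse 3 (0.0747), DSS + EA mouse 1 (0.128) or DSS + EA mouse 3 (0.0525). With only the DSS and DSS + EA groups fitted, *Ascl2*, *Axin2* and *Rnf43* did not pass the low-count filter. These genes were tested here only because the control libraries were in the fit. With no filter edgeR gave 1.58 for *Ascl2* (adjusted p = 0.0301). This comparison and the one before it share the DSS mice, so a low value in those mice moves both. *Lgr5* had 5, 1 and 3 counts in the DSS + EA mice, 9 in all against 1 in the DSS mice (ratio 10.8, exact 95% interval 1.49 to 472 for counting error), with the lowest DSS + EA mouse slightly above the highest DSS mouse in CPM (0.374 against 0.322). Its adjusted p was 0.0789 without the low-count filter.

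The remaining members were not called between DSS + EA and DSS mice. *Sox9* measured 13.4, 23.2 and 13 CPM in the DSS + EA mice, all above the DSS mice, with mouse 2 at the control level (log2 fold change 0.68, standard error 0.32, adjusted p = 0.126). Without that mouse the value was 0.39, and without DSS mouse 3 it was 0.45. With *Ascl2* it made 2 of 8 members in which the DSS + EA mice lay wholly above the DSS mice, as in 24.2% of all genes tested. *Rnf43* measured 3.65, 3.74 and 2.22 CPM (log2 fold change 1.02, standard error 0.55, adjusted p = 0.166), and *Prom1* 112, 127 and 99 CPM (0.67, standard error 0.44, adjusted p = 0.253). Both overlapped with the DSS mice, of which mouse 1 was the highest. *Prom1* was 1.48 and called without DSS mouse 1 (adjusted p = 0.0032), and 0.30 without DSS mouse 3 (adjusted p = 0.525). *Rnf43* was 0.59 without DSS mouse 3 (adjusted p = 0.342) and 1.51 without DSS mouse 1 (adjusted p = 0.0658). *Axin2* measured 4.26, 1.87 and 3.17 CPM, within the span of the DSS mice, with a log2 fold change of 0.23 (95% interval -1.04 to 1.5). *Ephb2* measured 4.87, 7.84 and 5.08 CPM and differed from the DSS group by -0.04 (95% interval -0.86 to 0.77). *Smoc2* measured 31.3, 8.59 and 29.5 CPM, with mouse 2 below every control mouse and the other two above them (-0.63 against DSS, standard error 0.44, adjusted p = 0.287). That value was -0.21 without DSS + EA mouse 2, -0.31 without DSS mouse 3 and -0.92 without DSS + EA mouse 1. *Lrig1* measured 7.91, 11.2 and 9.83 CPM (-0.57, standard error 0.34, adjusted p = 0.206), and without DSS mouse 3 it was called lower (-0.84, adjusted p = 0.0477). *Znrf3* had 1, 2 and 2 counts. The median of the 8 members was 0.45, beside -0.02 over all genes tested.

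The summed level of the epithelium markers was 5286, 4074 and 4686 CPM in the DSS + EA mice. Of the 8, 2 were higher and 0 lower than in the DSS mice, beside 17.2% higher over all genes, and the 2 became 7 without DSS mouse 1 and 1 without DSS + EA mouse 1. Surface colonocytes had 8 of 10 markers higher than in the DSS mice (list median 2.05) and goblet cells 6 of 8 (list median 2.42). The 8 became 2 without DSS mouse 2 or DSS + EA mouse 1, and 4 without DSS + EA mouse 2 or 3. With the libraries scaled to the epithelium markers, the median of all genes moved from -0.02 to -1.42 and 52.1% of all genes were called lower. *Ascl2* then differed by 0.23 (adjusted p = 0.785). *Smoc2* (-2.34, adjusted p = 0.00675) and *Lrig1* (-1.73, adjusted p = 0.0131) were called lower on that scale. Per 100 CPM of epithelium, *Ascl2* was 1.21, 0.91 and 0.778 in the DSS + EA mice, within the span of the DSS mice. *Axin2* (0.506 to 0.89) and *Ephb2* (1.02 to 2.12) lay below every control mouse on this scale, where the lowest control values were 1.45 and 2.15, as 8.65% of all genes tested did. The DSS + EA libraries also held RNA of pancreatic acinar genes, with all 9 tested markers higher than in DSS mice and summed levels of 455, 25820.1 and 11518 CPM in mice 1 to 3, against 262 CPM at most in the other 6 mice. *Ascl2*, *Axin2*, *Smoc2* and *Lgr5* were highest in mouse 1, which had the least of this RNA. *Sox9*, *Rnf43*, *Ephb2*, *Lrig1*, *Prom1* and *Znrf3* were highest in mouse 2, which had the most. The part of this RNA in the values of the members was not tested.

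**Figure D3:**
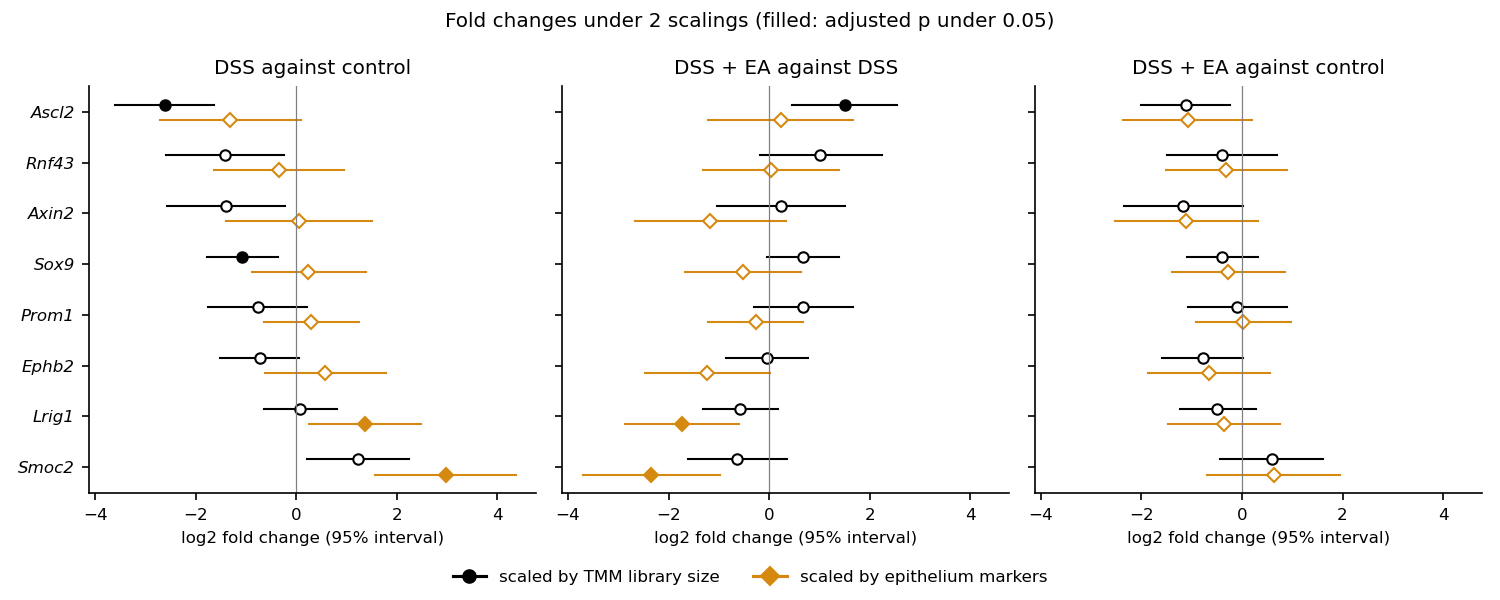
Log2 fold changes of the 8 tested members with 95% intervals in the 3 comparisons (horizontal axis), with black circles for libraries scaled by TMM and orange diamonds for libraries scaled by epithelium markers, filled where edgeR's adjusted p is under 0.05. *Ascl2* is filled in the first 2 panels under TMM (-2.62 and 1.5) and open under epithelium scaling (-1.31 and 0.23), *Sox9* (-1.07 with DSS) changes sign to 0.24, and no member is filled in the comparison of DSS + EA with control.

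Against the control mice, 0 of the 8 members were called in the DSS + EA group, beside 3.64% of all genes tested. At an unadjusted P under 0.05 there was 1 of 8, *Ascl2*, beside 17% of all genes (log2 fold change -1.12, standard error 0.40, unadjusted P = 0.0179, adjusted p = 0.181 from edgeR), and DESeq2 also called 0 members. The means of *Ascl2* were 4.11 and 8.92 CPM, with DSS + EA mouse 1 just above control mouse 3. *Axin2* (-1.17, 95% interval -2.35 to 0.02) and *Ephb2* (-0.78, 95% interval -1.58 to 0.02) lay wholly below the control mice, the 2 members of 8 that did so, as 14.2% of all genes tested did. The intervals for *Sox9* (-1.09 to 0.31), *Rnf43* (-1.49 to 0.70) and *Prom1* (-1.07 to 0.89) include both no change and a sizeable decrease, so a return to the control level was not shown for them. The levels of the 3 groups thus ran in the order control, DSS + EA, DSS for *Ascl2*, with the first pair overlapping and not called, and the second pair separate.

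The rest of the Wnt pathway was read from lists of its genes. Signals and receptors of the pathway were mostly too rare to test. With DSS, 21.5% of all genes tested were higher and 19.5% lower. Of 4 R-spondins only *Rspo3*, the ligand that raises Wnt signalling through Lgr receptors, was tested. It measured 3.56, 2.33 and 4.22 CPM in the control mice, 5.79, 34.3 and 24 CPM in the DSS mice and 6.09, 5.60 and 4.44 CPM in the DSS + EA mice. DSS mice 2 and 3 were high and DSS mouse 1 was near the DSS + EA mice (log2 fold change 2.67, standard error 0.57, adjusted p = 0.00494 with DSS, and -2.0, standard error 0.54, adjusted p = 0.018 from DSS to DSS + EA). The second call was lost without DSS mouse 2 (adjusted p = 0.0717), DSS + EA mouse 2 (0.052) or DSS + EA mouse 3 (0.0655). Of 21 genes for Wnt ligands and their secretion 3 were tested, and 1 was higher with DSS, *Porcn*, which attaches the lipid that Wnt proteins need (log2 2.16, adjusted p = 0.00399). That count became 2 without DSS mouse 3. Of 8 tested receptors, *Fzd1* (2.17) and *Fzd4* (2.11) were higher and *Fzd5* (-1.31), a Frizzled of the epithelium, was lower, and 2 were lower without DSS mouse 1. The call of *Fzd5* was lost without any 1 control mouse, DSS mouse 2 or DSS mouse 3 (adjusted p up to 0.109). From DSS to DSS + EA 4 of the 8 were lower and 0 higher, *Fzd4* (-2.44), *Fzd1* (-1.56), *Lrp5* (-1.49) and *Ryk* (-1.0), beside 18.3% lower over all genes. The 4 became 1 without DSS mouse 2 or DSS + EA mouse 1, and 2 without DSS + EA mouse 2 or 3, and the 0 higher became 1 without DSS mouse 1. Markers of the stroma moved in the same comparisons. Fibroblast markers were higher with DSS in 7 of 8 and lower from DSS to DSS + EA in 5 of 8. Endothelium markers were higher in 5 of 6 and then lower in 5 of 6, with summed means of 52.9 CPM in the control, 165 CPM in the DSS and 62 CPM in the DSS + EA mice, *Egfl7* the most abundant and none at 0 in any group. Their part in the *Rspo3*, *Porcn* and receptor values was not tested.

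Genes listed as secreted and surface inhibitors of Wnt were higher with DSS in 4 of 6 tested and lower in 0, with a list median of 1.49, beside 21.5% higher over all genes. *Sfrp1*, a decoy that binds Wnt ligands, measured 7.88, 9.64 and 6.90 CPM in the control mice, 98.4, 113 and 58 CPM in the DSS mice and 29.2, 40.3 and 27.6 CPM in the DSS + EA mice, with no overlap between any of the groups. It was 11.0-fold higher with DSS (log2 3.46, standard error 0.31, adjusted p = 6.19e-05), and still 3.95-fold above control in the DSS + EA mice (log2 1.98, adjusted p = 0.00784), where 3% of all genes were higher than in control. That second call was lost without control mouse 1 (adjusted p = 0.0572). *Dkk3* (2.20), *Kremen1* (1.31) and *Frzb* (1.16) were the others. The same 4 of 6 genes were lower in DSS + EA than in DSS mice, beside 18.3% lower over all genes. Their values were -1.84 for *Dkk3*, -1.06 for *Kremen1*, -1.49 for *Frzb* and -1.48 for *Sfrp1*. Both comparisons use the same DSS mice. The call of *Frzb* with DSS was lost without any 1 mouse other than control mouse 2 (adjusted p up to 0.18), and its call from DSS to DSS + EA without DSS + EA mouse 2 (0.0665) or mouse 3 (0.0936). The fibroblast markers had summed means of 869.6 CPM in the control, 5398 CPM in the DSS and 1742 CPM in the DSS + EA mice, and their part in the inhibitor values was not tested. Of 20 tested genes of the cytoplasmic and nuclear steps, 4 were higher and 2 lower with DSS (list median 0.23), beside 21.5% and 19.5% of all genes. The 4 became 1 without control mouse 1, 2 without DSS mouse 3 and 0 without control mouse 2, control mouse 3 or DSS mouse 2. The 2 became 0 without DSS mouse 3, and 1 without any 1 control mouse, DSS mouse 2, DSS + EA mouse 1 or DSS + EA mouse 3. *Axin1* (1.19) and *Gsk3b* (1.09), both of the β-catenin destruction complex, were higher, and *Tcf7l1* (-1.35), a TCF factor, was lower. Each of these calls was lost without control mouse 2 or DSS mouse 2, among others. *Ctnnb1*, which encodes β-catenin, had a log2 fold change of -0.58 (adjusted p = 0.0624), which turned to 0.83 with epithelium scaling.

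Of the 20 other crypt base and Wnt target genes tested, 8 were lower and 4 higher with DSS (list median -0.68), beside 19.5% lower and 21.5% higher over all genes. *Rnf186*, a ubiquitin ligase of the colon epithelium, had the lowest fold change of the list (-4.33, adjusted p = 0.000113). *Cdca7*, a gene of dividing crypt cells, measured 55.7, 62.5 and 59.8 CPM in the control mice, 9.97, 24.1 and 13.1 CPM in the DSS mice and 70.6, 62.4 and 59.6 CPM in the DSS + EA mice. It was lowest in DSS mouse 1, and it was level with the control mice after EA (log2 fold change -1.90 with DSS, adjusted p = 0.000973, and 2.01 from DSS to DSS + EA, adjusted p = 0.00126). The ion and water channels *Cftr* (-2.06) and *Aqp4* (-2.13) and the receptor *Kit* (-1.92) were also lower. *Kit* is known for the interstitial cells of Cajal too, as is the channel *Ano1*. *Ano1* measured 42.2, 36.6 and 30.7 CPM in the control mice and 11.3, 11.3 and 6.24 CPM in the DSS mice. The 5 tested markers of these cells and of glia went both ways, with 2 higher and 1 lower with DSS (list median 0.49). The part of these cells in the *Kit* value was not tested. The 4 higher crypt base and Wnt target genes were *Id2* (3.22), *Cd44* (2.46), *Nkd1* (1.21), a feedback inhibitor of Wnt, and *Ets2* (1.08). The calls of *Nkd1* and *Ets2* were lost without any 1 control mouse or DSS mouse 2, and that of *Nkd1* also without DSS mouse 3, DSS + EA mouse 1 or DSS + EA mouse 2. *Id2* and *Cd44* are also expressed by leukocytes and stromal cells, and the markers of neutrophils (7 of 7 tested), macrophages (7 of 8) and fibroblasts (7 of 8) were higher in the same mice, whose part in these values was not tested.

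The BMP pathway opposes Wnt in the crypt, and its antagonists from the cells below the crypt protect the stem cells from it. With DSS 8 of its 16 tested genes were higher and 1 lower (list median 0.80), beside 21.5% and 19.5% of all genes, and the 8 became 5 without control mouse 1 or 3. The antagonist *Grem1* measured 7.88, 5.98 and 3.83 CPM in the control mice, 80.1, 152 and 56.5 CPM in the DSS mice and 21.3, 26.9 and 18.4 CPM in the DSS + EA mice. The 3 groups did not overlap, and *Grem1* was 16-fold higher with DSS (log2 4.0, standard error 0.42, adjusted p = 0.000142) and 3.68-fold above control after EA (log2 1.88, adjusted p = 0.0361). The latter call was lost without any 1 of the 6 mice compared (adjusted p from 0.0851 to 0.131). *Chrd*, another antagonist, rose by 3.29 with DSS and was -2.07 from DSS to DSS + EA. The receptor *Bmpr2* rose by 2.30 with DSS. The fibroblast markers were higher in the same mice, and their part in the *Grem1* and *Chrd* values was not tested.

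**Figure D4:**
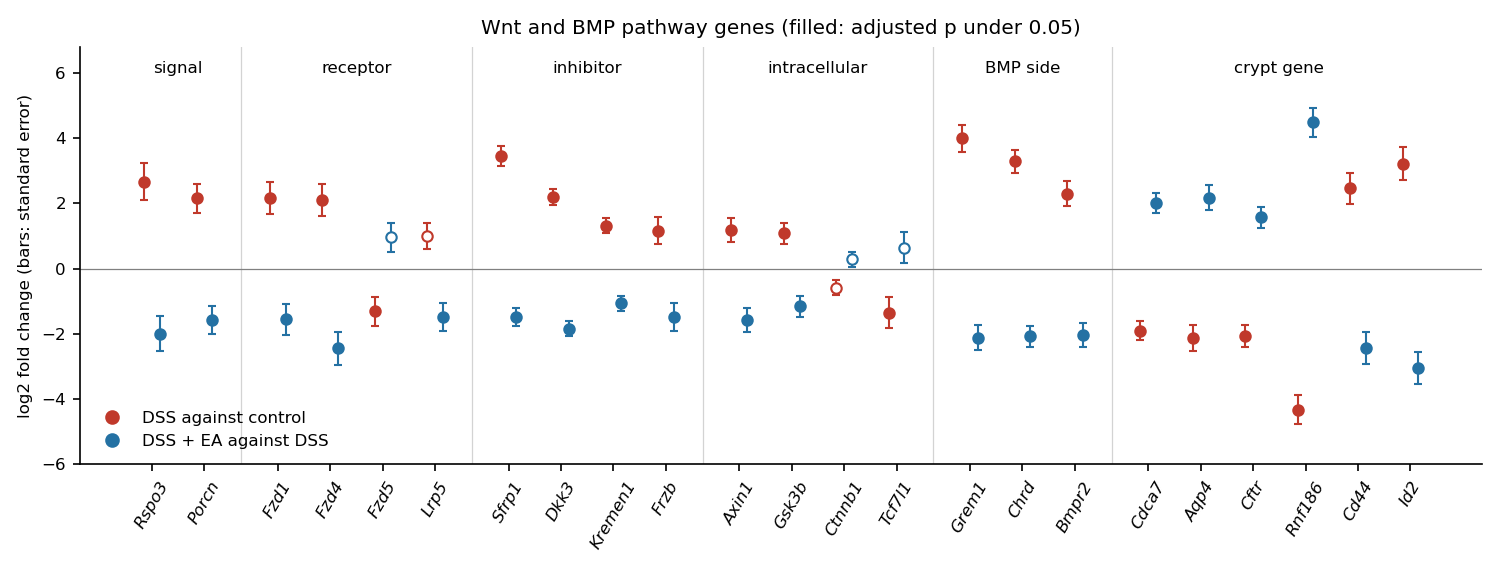
Log2 fold changes (vertical axis, bars for the standard error) of pathway genes named in the text, in red for DSS against control and in blue for DSS + EA against DSS, filled where edgeR's adjusted p is under 0.05. *Sfrp1* (3.46 and -1.48), *Grem1* (4.0 and -2.12) and *Rspo3* (2.67 and -2.0) rose with DSS and were lower after EA, and *Cdca7* (-1.90 and 2.01) ran the other way; with epithelium scaling *Ctnnb1* changed sign in both comparisons and *Fzd5* and *Tcf7l1* in the second.

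Over the 9 libraries, the members differed in how they went with *Lgr5* (Pearson's r of log2(CPM + 1), a description across mice that share their groups and depth). The r was 0.84 for *Ascl2*, 0.64 for *Rnf43*, 0.62 for *Sox9*, 0.54 for *Prom1*, 0.51 for *Axin2* and 0.31 for *Ephb2*, and it was -0.28 for *Lrig1* and -0.40 for *Smoc2*. The tested genes most like *Lgr5* were *Cap2* (0.97), *Zfp994* (0.95), *Capn13* (0.94), *AW146154* (0.94), *Apba3* (0.94), *Bad* (0.93), *Gtf2h4* (0.93), *Acsm3* (0.92), *Stau2* (0.92) and *Ctse* (0.92). None of them is on the lists of crypt genes used here. *Lgr5* has at most 10 counts in a library, so counting error has a large part in this order.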

How the data were processed

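The authors deposited whole-number read counts per gene for 9 mouse colon libraries, without normalization. The build mm10 comes from the submitters' processing notes. The aligner, counter, annotation and use of strand are not given in the sources used here, so reads of overlapping or antisense genes could not be told apart. Lines without counts (14) were skipped. Positions come from GENCODE M21. The test was edgeR 4.0.16 in R 4.3.3 (TMM, filterByExpr by group, quasi-likelihood F test, 1 fit over 9 libraries with group as the term, Benjamini-Hochberg adjustment over 12566 genes, call at 0.05). Standard errors are the log2 fold change divided by the square root of F. For epithelium scaling, each library's offset was the mean log count (plus 0.5) of 8 epithelium markers, the same markers that the scaling is compared with. An exact permutation test (two-sided) of 3 mice against 3 cannot go below 0.1, so p-values come from the model across genes. PCR copies were not told apart, so count intervals (exact binomial) cover counting error only. Functions were tested on simulated data.

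The members and lists were chosen with earlier results of these data known. All members are named, the called genes of smallest P from each list, and the 10 genes most like *Lgr5*. *Ctnnb1*, *Tcf7l1*, *Frzb*, *Aqp4*, *Cd44*, *Nkd1* and *Ets2* were added after their values were seen. Alternatives were DESeq2 1.42.0, RLE normalization, library totals, epithelium scaling, no filter, a minimum mean of 20 counts, fits of only the 2 groups compared, the thresholds of the study's methods, the replicate number as a block and each mouse left out. The same-numbered mice are different animals. Python 3.11.15, pandas 2.3.3, scipy 1.17.1 and matplotlib 3.10.9 were used for summaries and figures.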

Additional observations from a re-analysis of the deposited data

How the results depend on the processing

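Of 396 refitted log2 fold changes of members, 352 kept their sign and side of the threshold, 17 passed it newly, 9 lost it and 18 changed sign. Members called with DSS, lower and higher, were 2 and 0, and became 0 and 2 with epithelium scaling and 4 and 1 without a filter. They were 3 and 1 with DESeq2, where *Lgr5* was also tested and lower. With only the 2 groups fitted they were 2 and 1, and *Smoc2* was the higher one in both of these settings. There was 1 lower with a minimum mean of 20 counts (*Ascl2*, *Axin2* and *Rnf43* are then not tested) and 1 lower by the study's thresholds. Leaving out single mice gave 1 to 4 lower and 0 to 1 higher. For DSS + EA against DSS, 1 higher and 0 lower became 0 and 2 with epithelium scaling. There were 0 higher with a minimum mean of 20 counts or only the 2 groups (*Ascl2*, *Axin2* and *Rnf43* not tested in either), and 0 by the study's thresholds. Leaving out mice gave 0 to 1 each way, with *Prom1* the higher one without DSS mouse 1 and *Lrig1* the lower one without DSS mouse 3. The genes called over the whole table by the study's thresholds were 832 higher and 448 lower with DSS (2698 and 2446 by adjusted p), 366 and 440 for DSS + EA against DSS (2162 and 2295) and 219 and 42 for DSS + EA against control (377 and 80). With only the 2 groups fitted, 1441 were higher in DSS + EA than in DSS, and 790 higher and 359 lower than in control. DESeq2 called 136 lower than in control. Leaving out mice gave 1410 to 3050 higher against DSS, and 88 to 599 higher and 14 to 173 lower against control.

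With epithelium scaling the sign changed for *Axin2* (0.06), *Sox9* (0.24), *Ephb2* (0.58), *Prom1* (0.30), *Ctnnb1* (0.83), *Top2a* (1.48) and *Tyms* (1.40) with DSS, for *Axin2* (-1.17), *Sox9* (-0.52), *Prom1* (-0.27), *Fzd5* (-0.02), *Ctnnb1* (-1.05), *Tcf7l1* (-0.66), *Ccnd1* (-0.31), *Top2a* (-0.75), *Tyms* (-0.74) and *Ly6a* (-0.26) from DSS to DSS + EA, and for *Prom1* (0.03) against control. This scaling moves all genes by construction. Without a filter *Ephb2* was 0.04 from DSS to DSS + EA. Leaving out single mice moved *Lrig1* between -0.12 and 0.36 and *Top2a* between -0.28 and 0.06 with DSS, *Axin2* between -0.16 and 1.11 and *Ephb2* between -0.31 and 0.34 from DSS to DSS + EA, and *Prom1* between -0.18 and 0.05 against control. The cause was not tested.

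Deviations of same-numbered mice correlated between -0.16 and 0.105, and 0 of 9 mice correlated best with their own number in both other groups, so the numbers did not pair the samples. With the replicate block, 3 members were lower with DSS (*Rnf43*, -1.47, adjusted p = 0.0467, beside *Ascl2* and *Sox9*), 1 was higher after EA, and 51 genes were lower in DSS + EA than in control mice.

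Depth limits the rarest members. *Lgr5* and *Znrf3* had 27 and 22 counts over 9 libraries, and *Rnf43* and *Ascl2* fell to 1 and 3 counts in single DSS mice.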

Other observations

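Genes of the fetal-like repair state, a programme known from regenerating intestinal epithelium, were higher with DSS in 9 of 11 tested genes and lower in 0 (list median 1.67), where 21.5% of all genes were higher. From DSS to DSS + EA 5 of the 11 were lower and 1 higher, beside 18.3% and 17.2% of all genes, and the 5 became 3 without DSS + EA mouse 1 or 2. The higher gene was *Ly6a*, which encodes the surface protein Sca-1. It measured 311, 409.9 and 420.0 CPM in the control mice, 1385, 1138 and 1108 CPM in the DSS mice and 2556, 2019 and 3352 CPM in the DSS + EA mice, so that the groups did not overlap. The log2 fold change was 1.67 (adjusted p = 0.000572) with DSS and 1.13 (adjusted p = 0.00547) from DSS to DSS + EA in edgeR, the second of which became -0.26 with epithelium scaling. *Anxa1* was higher with DSS (1.94) and lower from DSS to DSS + EA (-0.94), and *Il33* likewise (4.49 and -1.79). The second call was lost for *Anxa1* without DSS + EA mouse 1 or 2, and for *Il33* without DSS mouse 3 or any 1 DSS + EA mouse. In all, 5 of the 11 genes were higher in DSS + EA than in control mice, where 3% of all genes were, among them *Ly6a* (2.80), *Anxa1* (1.01) and *Il33* (2.71). The 5 became 1 without control mouse 1, 3 without DSS mouse 2, and 2 without control mouse 2, control mouse 3 or any 1 DSS + EA mouse, and in all of these fits *Anxa1* and *Il33* lost the call. *Ly6a* and *Il33* are also expressed by endothelial, lymphoid and stromal cells. Endothelium markers were higher with DSS in 5 of 6 (list median 1.67) and lower from DSS to DSS + EA in 5 of 6 (-1.66), and fibroblast markers higher in 7 of 8 and then lower in 5 of 8. Of 5 tested lymphocyte markers 1 was lower with DSS (2 without control mouse 3, and 1 was higher without DSS mouse 1) and 1 higher from DSS to DSS + EA. The part of these cells was not tested.

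Of 20 cell cycle genes tested, 0 were called between DSS and control mice in edgeR or DESeq2 (list median 0.24), where 40.9% of all genes were called. At an unadjusted P under 0.05 there was 1, beside 49.8% of all genes, *Mcm4* (log2 0.70, unadjusted P = 0.0295, adjusted p = 0.0666 from edgeR). *Top2a*, a topoisomerase of dividing cells, measured 68.9, 77.8 and 74.7 CPM in the control mice, 52.4, 88.6 and 67.7 CPM in the DSS mice and 109.6, 102 and 132 CPM in the DSS + EA mice. It and *Tyms*, an enzyme of thymidylate synthesis, were the 2 genes of the list called higher in DSS + EA than in DSS mice (0.71, adjusted p = 0.0278, and 0.66, adjusted p = 0.0192), each with a negative value under epithelium scaling. That is 2 of 20 genes beside 17.2% of all genes, and the 2 became 1 without DSS mouse 3 or DSS + EA mouse 1 and 0 without DSS + EA mouse 3. These transcripts come from any dividing cell of the colon wall.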
